A study of Mus musculus with 11 samples.

Results

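Genes that mark the resident alveolar macrophage were followed in whole mouse lung: Itgax, Chil3, Marco, Siglecf, Fabp4, Pparg, Mrc1, Adgre1, Ear2 and Plet1. They are 10 of the 23255 genes in the table, were taken as a named list and found by symbol, and all 10 passed the filter on low values (a mean of at least 1 over the libraries). The list was chosen with earlier results of these data known, so its counts beside those of all genes are descriptions. RNA came from the lungs of C57BL/6 mice: untreated animals gave 3 control libraries, naphthalene, a chemical that injures airway club cells, gave 3, and naphthalene followed by osimertinib, which blocks the EGF receptor kinase, gave 5. The labels give no dose, time, age or sex, no osimertinib group without naphthalene, and no source of the replicates. The p-values therefore cover only how far these samples differ from each other, and that spread may be technical.

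Alveolar macrophages live on the air side of the alveolus, where they take up and break down surfactant, dust and microbes. They settle there around birth and renew themselves locally. The cytokine GM-CSF, made largely by alveolar type 2 cells, acts through a receptor of the subunits Csf2ra and Csf2rb to switch on Pparg, the transcription factor that sets their lipid-handling programme, and TGF-beta supports the same state. Interstitial macrophages of the lung tissue, monocytes, dendritic cells, eosinophils and, for single genes, fat cells, endothelium and airway epithelium share parts of the list. In whole lung, more cells of a type and more RNA per cell cannot be told apart.

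The values are normalised read counts (CPM, computed on library sizes times normalisation factors), and a gene's reads can be recovered from them. Libraries held 5045361 to 13009975 gene reads. In naphthalene 1 to 3 and osimertinib 2 a single unnamed gene took 43.9 to 60.3% of the reads, against at most 0.03375% elsewhere, so that the 10 genes together rested on 1218 to 3314 reads there and on 7628 to 13235 in the other libraries. The thinnest counts were 7 and 9 reads of Fabp4 in naphthalene 1 and 3 and 11 each of Marco and Pparg in naphthalene 2. All naphthalene libraries and no control library carry this read share, so for that comparison the treatment and the read share cannot be told apart. Osimertinib 3 and naphthalene 3 also stood apart in neutrophil genes and in genes of other cells, as given below.

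The promoter sequences of 6 of the genes are printed to show what these genes have in their proximal upstream sequence: 5 whose osimertinib libraries all lay above all controls, and Marco, whose libraries did not. RefSeq promoters of build GRCm38.p6 matched 8 of the 10 genes, and Adgre1 and Fabp4 had no match. The authors' files use another build, so these coordinates place only the printed sequence. Each line gives the 250 bases before the transcription start, 5′ to 3′ on the gene's strand. Capitals mark matches on either strand to GAGGAA (the core bound by PU.1, the main myeloid transcription factor), TGANTCA (AP-1), CACGTG (the E-box bound by Bhlhe40 and Bhlhe41) or TTGCNNAA (C/EBP), none of which overlap here.
Itgax, chr7:128129300-128129549, plus strand: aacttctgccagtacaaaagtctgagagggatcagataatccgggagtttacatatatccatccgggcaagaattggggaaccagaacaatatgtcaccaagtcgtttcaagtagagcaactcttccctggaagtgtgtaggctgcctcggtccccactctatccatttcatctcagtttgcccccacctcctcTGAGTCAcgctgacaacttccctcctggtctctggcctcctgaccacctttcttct
Siglecf, chr7:43351091-43351340, plus strand: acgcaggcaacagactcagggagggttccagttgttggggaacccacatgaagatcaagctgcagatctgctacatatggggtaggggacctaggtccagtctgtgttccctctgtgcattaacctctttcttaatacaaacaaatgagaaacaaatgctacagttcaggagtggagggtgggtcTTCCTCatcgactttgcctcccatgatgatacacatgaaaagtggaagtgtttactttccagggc
Mrc1, chr2:14229164-14229413, plus strand: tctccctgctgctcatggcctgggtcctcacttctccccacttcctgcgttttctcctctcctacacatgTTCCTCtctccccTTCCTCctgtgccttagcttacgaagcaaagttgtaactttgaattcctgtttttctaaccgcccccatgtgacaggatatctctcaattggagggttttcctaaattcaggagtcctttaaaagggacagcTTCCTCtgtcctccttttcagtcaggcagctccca
Chil3, chr3:106167565-106167814, minus strand: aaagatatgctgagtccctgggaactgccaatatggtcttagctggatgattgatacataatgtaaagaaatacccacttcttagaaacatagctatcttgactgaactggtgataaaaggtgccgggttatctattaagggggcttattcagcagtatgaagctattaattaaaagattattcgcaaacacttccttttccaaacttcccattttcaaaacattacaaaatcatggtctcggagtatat
Plet1, chr9:50494275-50494524, plus strand: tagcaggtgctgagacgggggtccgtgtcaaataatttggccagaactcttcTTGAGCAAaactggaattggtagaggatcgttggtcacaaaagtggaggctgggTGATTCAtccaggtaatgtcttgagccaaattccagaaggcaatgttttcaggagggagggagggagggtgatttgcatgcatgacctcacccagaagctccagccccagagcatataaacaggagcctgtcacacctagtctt
Marco, chr1:120505025-120505274, minus strand: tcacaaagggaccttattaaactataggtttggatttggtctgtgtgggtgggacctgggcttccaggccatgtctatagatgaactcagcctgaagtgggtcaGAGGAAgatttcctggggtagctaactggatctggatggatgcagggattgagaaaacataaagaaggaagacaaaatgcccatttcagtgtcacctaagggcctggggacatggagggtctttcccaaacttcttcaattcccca

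Mrc1 held 3 matches to GAGGAA, Siglecf and Marco held 1 each, and Itgax, Chil3 and Plet1 held 0. GAGGAA occurs in 23.3% of the 32851 mouse promoters of this length, so 3 of these 6 is a count on few sequences. TGANTCA was found in Itgax and Plet1 and occurs in 6.75% of all promoters. TTGCNNAA, which occurs in 9.56%, was found in Plet1, and CACGTG, which occurs in 6.02%, in 0 of the 10 promoters of the 8 genes. Chil3 had none of the 4. These are matches of letters in a short window and do not show binding.

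Levels per kilobase of exon (gene lengths from GENCODE M21 on GRCm38) ranked the genes in control lung. Chil3, which encodes the chitinase-like lectin Ym1, a major secreted protein of mouse alveolar macrophages, was highest at 181 ± 11.8 CPM per kb (SD, n = 3). Ear2, an eosinophil-associated ribonuclease also made by these macrophages, followed at 52.9 ± 6.51. Plet1 (14.2 ± 0.996) and Mrc1 (12.7 ± 0.750) did not differ beyond their SDs, nor did Siglecf (3.44 ± 0.188) and Pparg (3.37 ± 0.216). Itgax lay at 8.17 ± 0.253, Adgre1 at 5.00 ± 0.415, and Marco was lowest at 2.65 ± 0.113. Fabp4 has no stable place in this order (18.5 ± 22.7), because 1 control library held most of its signal. Chil3 and Ear2 remained the highest per kilobase in both treated groups.

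Set against untreated lung, lung given naphthalene and then osimertinib had higher levels of 6 of the 10 genes in every library: Itgax, Siglecf, Adgre1, Mrc1, Chil3 and Plet1. For each of them all 5 osimertinib libraries lay above all 3 controls, by 1.40- to 1.80-fold in the means, where 2.91% of all 16225 genes tested lay wholly higher in that way and 3.43% wholly lower. Ear2 and Pparg were also higher in the mean, but with overlap, while Marco and Fabp4 were lower in the mean, with overlap. No gene of the 10 passed the test over all genes: limma, at an adjusted p under 0.05, called 0 of them and 1 gene of all 16225 (0.00616% higher, 0% lower). At an unadjusted p under 0.05 limma had 6 of the 10, all higher, against 2.31% of all genes higher and 2.5% lower. edgeR on the recovered reads called 0 of the 10 and 0.00616% of all genes, with 6 of the 10 at an unadjusted p under 0.05, where 6.13% of all genes were in either direction. DESeq2 on the same reads, which gave Fabp4 no adjusted p, called 2, Itgax and Plet1. It called 0.559% of the 13949 genes with an adjusted p, in either direction. It had 6 at an unadjusted p under 0.05, where 6.29% of the 16142 genes with a p were.

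**Figure D1:**
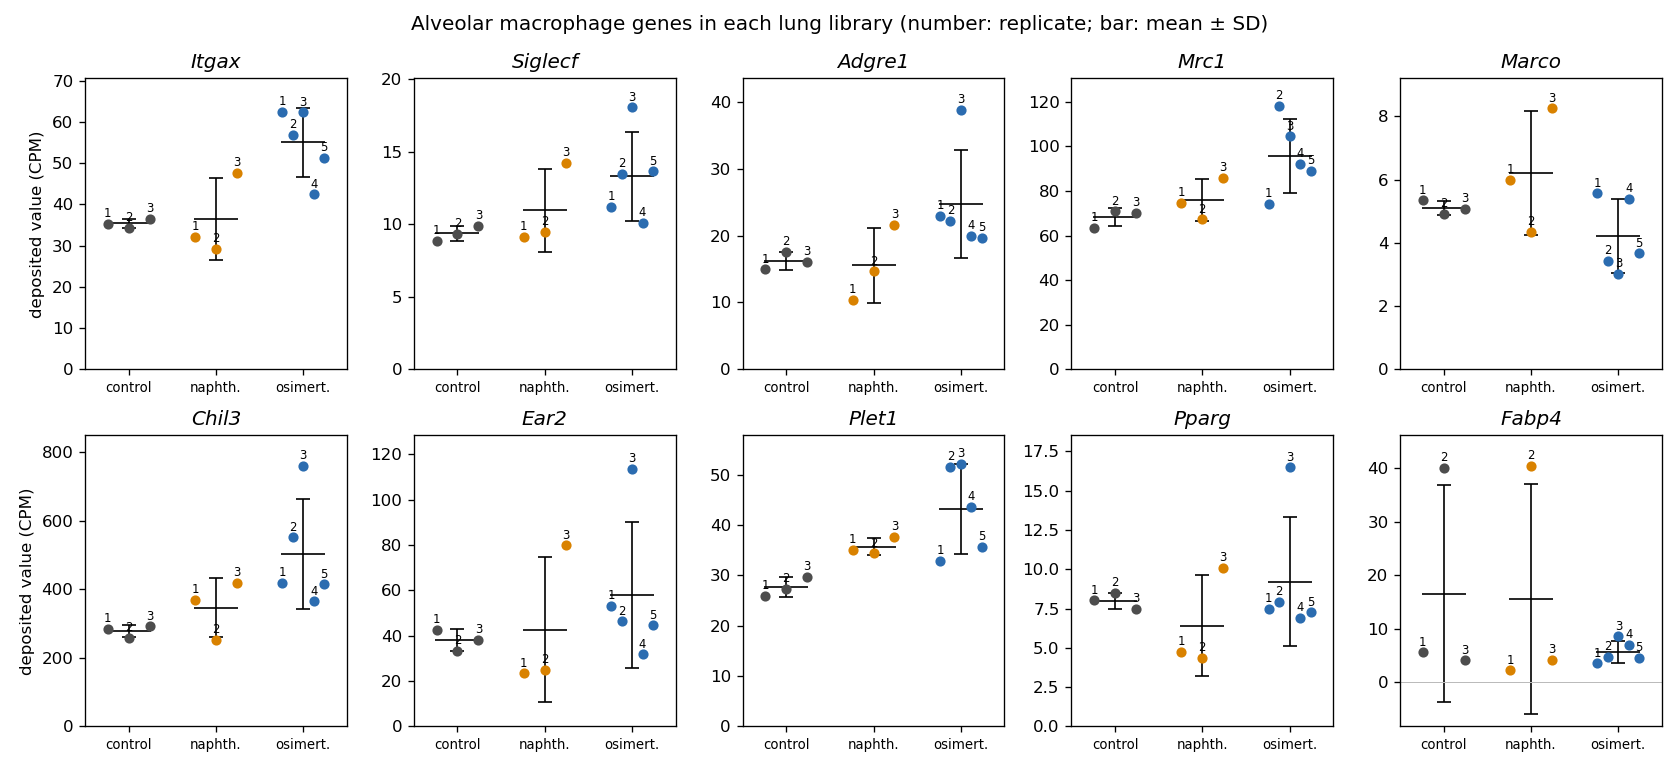
Deposited value (CPM, linear axis, 1 panel per gene) of the 10 genes in each library, by group (naphth. = naphthalene, osimert. = osimertinib after naphthalene); the number at a point is the replicate and the black bar the mean ± SD, which for Fabp4 reaches below 0. In the Itgax, Siglecf, Adgre1, Mrc1, Chil3 and Plet1 panels all 5 osimertinib points lie above all 3 control points, and in the Fabp4 panel control 2 (40.01) and naphthalene 2 (40.3) stand alone.

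Among the surface receptors, Itgax (ENSMUSG00000030789), the CD11c integrin chain that alveolar macrophages share with dendritic cells, was at 35.3, 34.4 and 36.6 CPM in controls 1 to 3. It was at 32.2, 29.3 and 47.7 in naphthalene 1 to 3, and at 62.4, 56.9, 62.4, 42.5 and 51.2 in osimertinib 1 to 5. The controls lay close together, naphthalene 3 stood above the rest of its group, and 4 of the 5 osimertinib libraries lay above every naphthalene library. Osimertinib against control gave a log2 difference of 0.61 (SE 0.16, 95% interval 0.26 to 0.96, limma adjusted p = 0.558; DESeq2 adjusted p = 0.0253). Osimertinib against naphthalene gave 0.60 (SE 0.16, limma adjusted p = 0.237), and naphthalene against control 0.0075 (SE 0.18, limma adjusted p = 0.997), an interval of −0.39 to 0.40. All log2 differences here are of log2(CPM + 1), the group named first minus the other, and they come out too small for low genes.

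Siglecf (ENSMUSG00000039013), a sialic acid-binding lectin that with CD11c defines the mouse alveolar macrophage and is also carried by eosinophils, was at 8.86, 9.36 and 9.89 CPM in control and at 9.16, 9.49 and 14.2 in naphthalene. In osimertinib 1 to 5 it was at 11.2, 13.5, 18.1, 10.1 and 13.7. The osimertinib values lay above all controls but reached across the naphthalene range, with osimertinib 3 alone above naphthalene 3. Its log2 difference to control was 0.44 (SE 0.19, interval 0.03 to 0.85, limma adjusted p = 0.963). Of the 7 eosinophil genes listed, 4 were analysed here (Ccr3, Il5ra, Alox15 and Cd300lb), and their summed level was 5.66 to 14.7 CPM in osimertinib and 6.55 to 16.2 in control. Epx, Prg2 and Prg3 were not found by symbol, so the sum leaves them out. What eosinophils contribute to Siglecf was not tested.

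Adgre1 (ENSMUSG00000004730), which encodes the macrophage surface protein F4/80, was at 14.9, 17.6 and 16.0 CPM in control. Naphthalene 1 to 3 held 10.4, 14.6 and 21.6, and osimertinib 1 to 5 held 23.0, 22.2, 38.8, 19.95 and 19.7. All osimertinib libraries lay above all controls, and naphthalene spread to both sides of control. The log2 difference was 0.54 (SE 0.24) against control and 0.65 (SE 0.24) against naphthalene, with limma adjusted p = 0.998 and 0.372.

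Mrc1 (ENSMUSG00000026712), the mannose receptor CD206, which interstitial macrophages and lymphatic endothelium also carry, was at 63.6, 70.8 and 70.2 CPM in control and at 74.5, 67.2 and 85.8 in naphthalene. It was at 74.3, 118, 105, 92.2 and 89.0 in osimertinib 1 to 5. Osimertinib 2 was highest, and the lowest osimertinib library lay above the highest control. The log2 difference to control was 0.47 (SE 0.14, interval 0.17 to 0.76, limma adjusted p = 0.625) and to naphthalene 0.32 (SE 0.14, limma adjusted p = 0.448).

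Marco (ENSMUSG00000026390), a scavenger receptor for dust and bacteria, did not share this pattern. It was at 5.34, 4.91 and 5.08 CPM in control, at 6.00, 4.35 and 8.26 in naphthalene and at 5.57, 3.44, 3.03, 5.39 and 3.66 in osimertinib. Osimertinib 3, the highest library for 6 of the 10 genes, was the lowest of all 11 for Marco. The log2 difference was −0.46 (SE 0.22, interval −0.94 to 0.02, limma adjusted p = 0.507) against naphthalene and −0.26 (SE 0.22, limma adjusted p = 0.999) against control. Marco rested on 11 to 94 reads a library, the fewest at their highest of the 10 genes.

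Chil3 (ENSMUSG00000040809) had the largest log2 difference to control of the 10 genes. It was at 285, 258 and 292 CPM in control, at 369, 253 and 419 in naphthalene and at 419, 552, 761, 365 and 415 in osimertinib. The means were 278 ± 18.1 (SD, n = 3), 347 ± 85.5 (SD, n = 3) and 503 ± 160 (SD, n = 5), and naphthalene overlapped both other groups. Osimertinib against control gave a log2 difference of 0.80 (SE 0.23, interval 0.30 to 1.29, limma adjusted p = 0.613; DESeq2 adjusted p = 0.0509), and osimertinib against naphthalene 0.51 (SE 0.23, limma adjusted p = 0.467). Its close paralogue Chil4 was at 0.459 to 5.37 CPM over the libraries, far below Chil3 in every library.

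Ear2 (ENSMUSG00000072596) varied more between libraries within each treated group than between groups, while the controls lay closer together. It was at 42.6, 33.3 and 38.3 CPM in control, at 23.4, 24.9 and 79.9 in naphthalene and at 53.1, 46.3, 114, 31.8 and 44.5 in osimertinib. Naphthalene 3 and osimertinib 3 were the highest libraries, and all groups overlapped. The log2 difference of osimertinib to control was 0.46 with an interval of −0.44 to 1.36 (limma adjusted p = 0.999). Ear1, a near-identical member of the same ribonuclease family, was likewise highest in naphthalene 3 (25.7) and osimertinib 3 (32.9), against 4.10 to 18.0 elsewhere. How the authors' counting split reads between Ear1 and Ear2 is uncertain.

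Plet1 (ENSMUSG00000032068), a surface protein of alveolar macrophages that airway progenitor cells and dendritic cells also express, was the 1 gene whose groups did not overlap in naphthalene against control. It was at 25.9, 27.3 and 29.7 CPM in control, at 35.0, 34.4 and 37.6 in naphthalene and at 32.9, 51.6, 52.2, 43.6 and 35.6 in osimertinib. Every treated library lay above every control. The log2 difference was 0.36 for naphthalene against control (SE 0.17, interval −0.0030 to 0.72, limma adjusted p = 0.67) and 0.60 for osimertinib against control (SE 0.15, interval 0.28 to 0.93, limma adjusted p = 0.451; DESeq2 adjusted p = 0.0365). Osimertinib against naphthalene was 0.25 (SE 0.15, limma adjusted p = 0.607), with osimertinib 1 below all naphthalene libraries.

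Pparg (ENSMUSG00000000440), the regulator of the programme, was at 8.01, 8.51 and 7.49 CPM in control and at 4.74, 4.35 and 10.1 in naphthalene. In osimertinib it was at 7.48, 7.94, 16.5, 6.92 and 7.26, so that 3 libraries lay below every control and osimertinib 3 lay far above them all. Osimertinib 1 lay below the lowest control by less than the value of 1 read. The log2 difference to control was 0.11 (SE 0.29, limma adjusted p = 0.999), and it turned to −0.10 without osimertinib 3. Naphthalene 1 and 2 lay below every other library and naphthalene 3 above every control, and naphthalene against control gave −0.36 (SE 0.32, interval −1.07 to 0.34).

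Fabp4 (ENSMUSG00000062515), a fatty acid-binding protein under Pparg control in alveolar macrophages and also a major fat-cell and capillary product, was at 5.57, 40.01 and 4.08 CPM in control. It was at 2.21, 40.3 and 4.13 in naphthalene and at 3.51, 4.76, 8.55, 6.98 and 4.53 in osimertinib. Control 2 and naphthalene 2 lay far above the other 9 libraries, which ran from 2.21 to 8.55. The same libraries held the fat-cell hormone Adipoq at 20.4 and 18.2 CPM, against 0.356 to 2.06 elsewhere, and the lipid droplet protein Plin1 at 18.9 and 11.9, against at most 1.73. The 8 adipocyte genes analysed summed to 174 and 217 CPM in these libraries and to 31.3 to 51.9 in the others, and their part in Fabp4 was not tested. Without control 2 the log2 difference of osimertinib to control turned from −0.79 to 0.15, and without naphthalene 2 that of osimertinib to naphthalene turned from −0.45 to 0.66 (limma adjusted p = 1 and 0.831).

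**Figure D2:**
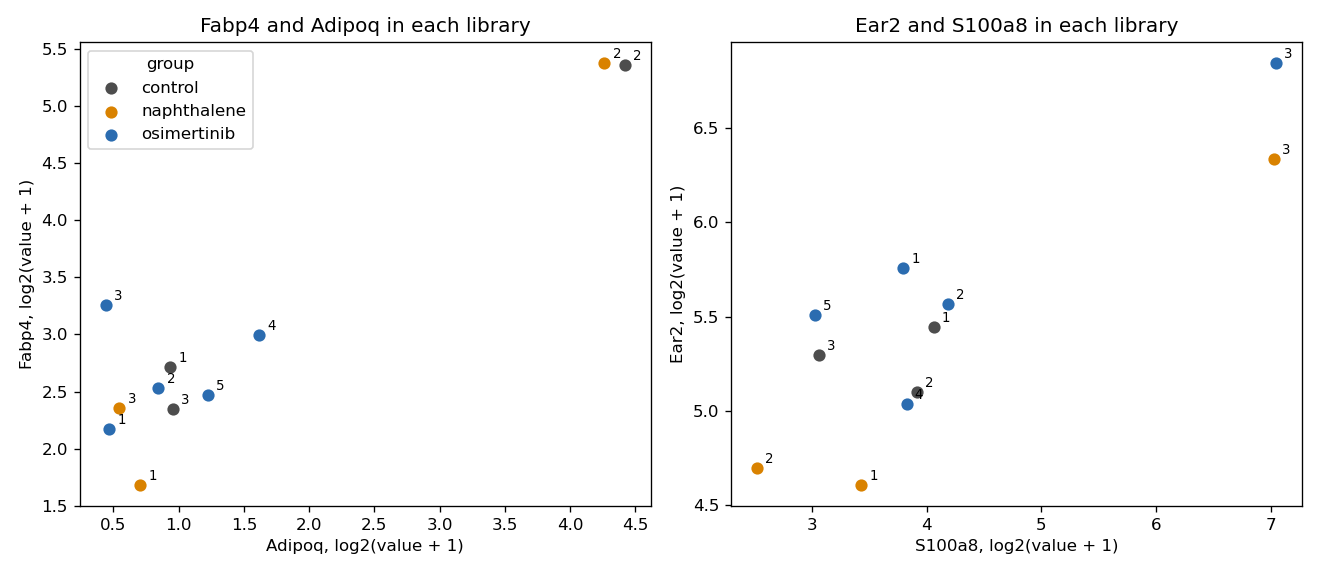
Left, Fabp4 against the adipocyte gene Adipoq, and right, Ear2 against the neutrophil gene S100a8, both axes as log2(CPM + 1), 1 point per library, numbered by replicate and coloured by group. Control 2 and naphthalene 2 are high on both axes at left, and naphthalene 3 and osimertinib 3 are high on both axes at right.

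The list as a whole was little displaced by naphthalene alone. In naphthalene against control 6 of the 10 log2 differences lay above 0 and 4 below, with a median of 0.08 beside −0.06 for all genes tested, of which 38% lay above 0; with totals set equal without the genes over 5% of a library, which moved the median of all genes to −0.31, Itgax, Marco, Siglecf and Mrc1 turned below 0 and the median was −0.20. Plet1 alone had groups that did not overlap, where 4.94% of all genes lay wholly higher and 11.2% wholly lower. With the equal totals Plet1 overlapped, and Pparg alone lay wholly apart, lower, where 40.9% of all genes did. limma called 0 of the 10 and 0% of all genes, with 0 of the 10 at an unadjusted p under 0.05, against 1.73% of all genes higher and 5.74% lower. edgeR called 0 of the 10 and 0% of all genes, and DESeq2, which gave Marco and Fabp4 no adjusted p, called 0 of the 10 and 0.108% of the 11121 genes with one. Each had 1 of the 10 (Plet1) at an unadjusted p under 0.05, where edgeR had 5.53% of all genes and DESeq2 4.73% of the 16142 genes with a p. The 95% intervals were narrowest for Mrc1 (−0.19 to 0.48) and widest for Fabp4 (−2.27 to 1.60). Without naphthalene 3, Itgax, Pparg, Adgre1 and Ear2 lay wholly below the controls, where 26.4% of all genes did, and the median was −0.0015. Without naphthalene 2, Chil3, Marco and Mrc1 joined Plet1 wholly above them, where 11.3% of all genes lay wholly higher.

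In osimertinib against naphthalene 8 of the 10 log2 differences lay above 0, with a median of 0.40 beside 0.06 for all genes, of which 60.5% lay above 0. No gene of the 10 had groups that did not overlap, where 3.82% of all genes lay wholly higher and 2.12% wholly lower. limma called 0 of the 10 and 0% of all genes, and at an unadjusted p under 0.05 it had 4 of the 10 (Itgax, Adgre1, Mrc1 and Chil3), all higher, against 7.08% of all genes higher and 3.22% lower. edgeR called 0 of the 10 and 0% of all genes, with 2 of the 10 at an unadjusted p under 0.05, where 7.33% of all genes were. DESeq2, which gave Fabp4 no adjusted p, called 0 of the 10 and 0.231% of the 14264 genes with one. It had 3 of the 10 at an unadjusted p under 0.05, where 6.27% of the 16142 genes with a p were. Within the 3 same-numbered pairs of naphthalene and osimertinib libraries, Itgax, Siglecf, Adgre1, Chil3, Ear2 and Pparg were higher and Marco lower in osimertinib in every pair, where 21.2% of all genes were higher and 12.7% lower in every pair. The values do not establish that same-numbered libraries belong together. Without naphthalene 3, Itgax, Siglecf, Pparg, Adgre1 and Ear2 lay wholly above naphthalene, where 13.4% of all genes did, and the median was 0.56. Without naphthalene 2, Marco lay wholly below, where 4.59% of all genes did. Mrc1 lay wholly above without osimertinib 1, where 4.78% of all genes did, and Itgax without osimertinib 4, where 4.57% did. With totals set equal without the genes over 5% of a library, which moved the median of all genes to 0.22, Itgax, Chil3, Mrc1, Adgre1 and Plet1 lay wholly above, where 10% of all genes did, and limma called Itgax (adjusted p = 0.0476). Osimertinib 2, the library with the read share of the naphthalene libraries, gave a median of 0.44 against them on its own, with 8 of 10 above 0 and 0 called (smallest limma adjusted p = 0.508, its spread assumed to be that of the other groups).

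In osimertinib against control 8 of the 10 lay above 0, with a median of 0.46 beside −0.01 for all genes, of which 48% lay above 0. The 6 genes that did not overlap were still those 6 without osimertinib 2, which leaves only libraries of low read share, where the median was 0.47 and the smallest limma adjusted p of the 10 was 0.844. They were still those 6 without osimertinib 3 (median 0.35) and without both (median 0.30). Wholly higher lay 3.91% of all genes without osimertinib 2, 4.6% without osimertinib 3 and 6.69% without both. Pparg lay wholly lower without both, where 8.44% of all genes did, but osimertinib 1 did so by less than the value of 1 read. This comparison shares its controls with naphthalene against control and its osimertinib libraries with osimertinib against naphthalene, and these share the naphthalene libraries, so the 3 sets of values are not independent.

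**Figure D3:**
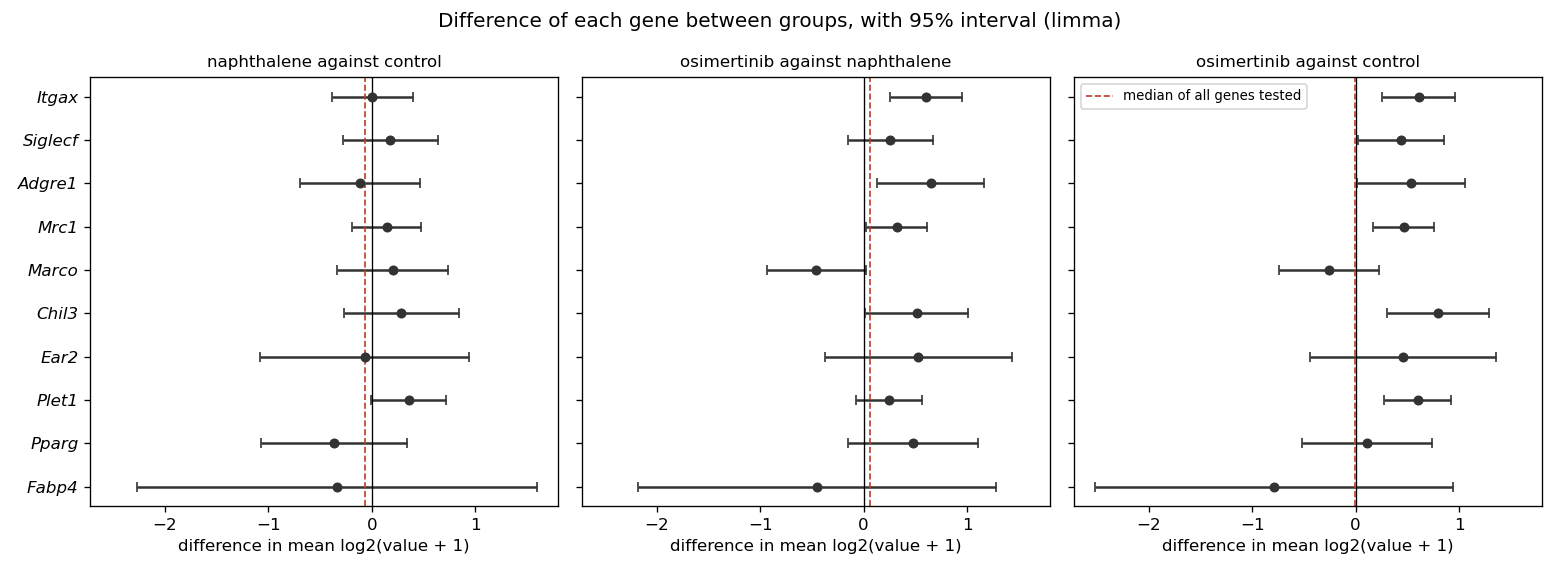
Difference in mean log2(CPM + 1) of each gene in the 3 comparisons, with the 95% interval from limma; the dashed line is the median of all genes tested. In osimertinib against control the intervals of Itgax, Siglecf, Adgre1, Mrc1, Chil3 and Plet1 lie above 0 before adjustment over all genes, and Fabp4 has the widest interval in each panel.

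Across the 11 libraries most of the genes moved with each other. Of the 45 pairs, 25 had a Pearson r above 0.5 on log2(CPM + 1), with a median of 0.62 (0.41 without osimertinib 3), given as a description of libraries that share depth and groups. Mrc1 and Plet1 were the most alike (r = 0.92), followed by Pparg and Ear2 (0.92). Marco and Fabp4 had no pair above 0.5, and their median r with the other genes was −0.41 and −0.24. Pparg, Ear2 and Adgre1 were alike in being highest in osimertinib 3 and higher in naphthalene 3 than in the other naphthalene libraries, whereas Mrc1 and Plet1 were high in osimertinib 2 and 3 alike.

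**Figure D4:**
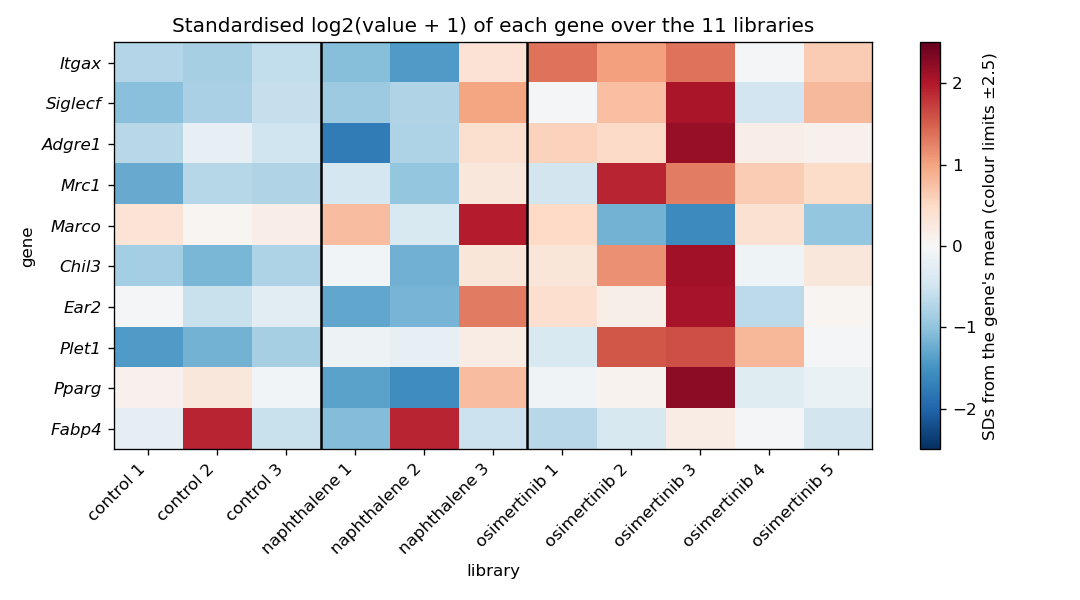
Each gene's log2(CPM + 1) in each library, in SDs from that gene's mean over the 11 libraries (red above, blue below), with black lines between groups. Osimertinib 3 is the reddest column for 6 of the 10 genes and blue for Marco, and Fabp4 is deep red in control 2 and naphthalene 2.

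Among the 16215 other genes, the 6 most like the mean standardised profile of the 10 genes over the 11 libraries were Csf2rb (Pearson r = 0.97), Sirpa (0.96), Slc15a3 (0.96), Tlr8 (0.95), Pld3 (0.95) and Ifih1 (0.95). Csf2rb encodes the signalling chain of the GM-CSF receptor, Sirpa an inhibitory receptor of myeloid cells, Slc15a3 a lysosomal peptide transporter, Tlr8 and Ifih1 sensors of RNA, and Pld3 a lysosomal nuclease. Csf2rb was at 29.1, 33.8 and 29.9 CPM in control, at 30.6, 29.3 and 53.2 in naphthalene and at 41.9, 46.1, 75.3, 33.4 and 41.8 in osimertinib. Without osimertinib 3 its r was 0.94. The ligand-binding chain Csf2ra, named after its rank was seen, was number 10 (0.94).

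The axis that maintains these cells was read from a list of 22 genes, of which limma called 0 in each comparison. In osimertinib against control 11 lay above 0 and 11 below (median 0.06), so the list as a whole stayed near the median of all genes. The largest differences there were in the receptor chains Csf2rb (0.56, SE 0.24) and Csf2rb2 (0.54, SE 0.18), the interleukin 3 receptor chain beside it, and in GM-CSF itself (Csf2, 0.52, SE 0.42), which was at 2.52 ± 2.15 CPM (SD, n = 5) against 1.21 ± 0.457 (SD, n = 3) and was highest in osimertinib 3 (6.24) and naphthalene 3 (5.51). The transcription factor Cebpb, which alveolar macrophages need, was at 20.2 ± 8.20 (SD, n = 3) in naphthalene against 45.1 ± 8.27 in control and 44.1 ± 19.0 (SD, n = 5) in osimertinib. It did not pass the limma test (adjusted p = 0.305 in osimertinib against naphthalene and 0.519 in naphthalene against control).

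Of 23 further genes of alveolar macrophages, limma called 0 in each comparison, and 17 lay above 0 and 6 below in osimertinib against control (median 0.34), with 8 whose groups did not overlap on the higher side and 1, Trf, on the lower. Of all genes 2.91% lay wholly higher there and 3.43% wholly lower. The largest difference there was in Ctsk, a collagen-degrading lysosomal protease, at 17.2 ± 5.05 CPM (SD, n = 5) against 7.35 ± 0.520 (SD, n = 3; DESeq2 adjusted p = 0.000315, limma adjusted p = 0.313). The chemokine Ccl6 (log2 0.91, SE 0.47) and the beta-glucan receptor Clec7a (0.76, SE 0.25) followed. Both were highest in osimertinib 3: Ccl6 was at 407 CPM, against 92.6 to 147 in the other osimertinib libraries, and Clec7a at 88.5, against 41.2 to 65.1. Ctsk and Atp6v0d2, a subunit of the lysosomal proton pump, were the 2 genes of the list that DESeq2 called, and Atp6v0d2 was at 32.2 ± 7.98 (SD, n = 5) against 18.5 ± 2.87 (SD, n = 3; DESeq2 adjusted p = 0.0336, limma adjusted p = 0.527). In osimertinib against naphthalene 17 of the 23 lay above 0 (median 0.23), and in naphthalene against control 14 (median 0.06).

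Markers of the other cells that share the list were read beside it, with 0 limma calls in each list and comparison. Of 14 interstitial macrophage genes 7 lay above 0 in osimertinib against control (median 0.0036) and 11 in osimertinib against naphthalene (median 0.34). The 15 listed, with 1 below the filter, summed to 491 to 554 CPM in osimertinib, 406 to 481 in naphthalene and 460 to 494 in control. Apoe, at 136 to 218 CPM over the libraries, was the largest part of this sum, and its Lyve1 is also on the lymphatic list. Ms4a7, a membrane protein of macrophages of monocyte origin, had the largest difference of the interstitial genes in both comparisons, at 4.02 ± 1.56 CPM in the 5 osimertinib libraries and 1.24 ± 0.257 in the 3 controls (mean ± SD; DESeq2 adjusted p = 0.0091, limma adjusted p = 0.625), followed against control by the complement genes C1qc (log2 0.77, SE 0.27) and C1qb (0.70, SE 0.23). C1qc and C1qb were highest in osimertinib 3 (40.4 and 37.3 CPM), against 14.9 to 20.9 and 16.4 to 22.6 in the other osimertinib libraries. Of 12 monocyte genes 5 lay above 0 in osimertinib against control (median −0.03), and of 9 dendritic cell genes 5 (median 0.02). Of 7 pan-leukocyte genes 5 lay above 0 there (median 0.20). Coro1a (log2 −0.35, SE 0.26) and Ptprc, the leukocyte phosphatase CD45 (−0.25, SE 0.11), went the other way. Ptprc was at 186, 200.2 and 168 CPM in control and at 166, 164, 144, 176 and 128 in osimertinib, so that 4 of the 5 lay below every control. The 7 lymphatic endothelial genes had a median of 0.56, with 4 above 0, and summed to 267 to 325 CPM in osimertinib and 247 to 296 in control. In limma 4 of these 7 had an unadjusted p under 0.05, all higher, where 2.31% of all genes did. Wholly above control lay 3 of the 7, 2 of the 14 interstitial, 1 of the 9 dendritic, 0 monocyte and 0 pan-leukocyte genes. Of all genes 2.91% did. What these cells contribute to Itgax, Mrc1, Adgre1 or Plet1 was not tested.

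Most of the better measured neutrophil genes were high in the libraries that were highest for Ear2 and Pparg: S100a8, S100a9, Retnlg, Cxcr2, Csf3r and Mmp8 were each highest in naphthalene 3 and osimertinib 3. The neutrophil alarmin S100a8 was at 129 CPM in naphthalene 3 and 131 in osimertinib 3, against 4.75 to 17.2 in the other 9 libraries. The 10 neutrophil genes summed to 405 and 409 CPM in these libraries and to 54.4 to 105 in the others. Ltf, which encodes the granule protein lactoferrin, also made by airway glands, went the other way and was lowest in the same libraries (4.59 and 5.70 CPM, against 15.1 to 52.6 elsewhere). Ly6g, which defines neutrophils, was at 0 in all controls and at most 0.459 in any library. Genes of other cells also set naphthalene 3 and osimertinib 3 apart. The surfactant gene Sftpc was at 11037 and 17256 CPM there, against 5940 to 9214 elsewhere. Lyz2 was at 4989 and 8620 against 2700 to 3663, and Tyrobp at 73.4 and 178 against 24.5 to 45.7. The endothelial gene Kdr was lowest there (183 and 170, against 213 to 313 elsewhere). The part of all this in the other values of naphthalene 3 and osimertinib 3 was not tested.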

How the data were processed

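Total RNA of 11 mouse lung samples was depleted of ribosomal RNA and made into stranded libraries, per the labels' protocols. The authors deposited a normalised signal: CPM computed on library sizes times normalisation factors. Tools in the submitters' processing notes are Trimmomatic 0.38, RSEM 1.3.0, Bowtie2 and edgeR, with build GRCm39 and no roles given. Each value was a whole multiple of the library's step within 0.01 (100% of values), which gave back whole reads, each worth 0.0568 to 0.459 CPM. GENCODE M21 (GRCm38) named 23123 of the 23255 IDs. The test used limma 3.58.1 (R 4.3.3) on log2(value + 1), with a trend, for the 16225 genes averaging 1 CPM or more. All 3 groups shared the fit, and p-values were Benjamini-Hochberg adjusted over those genes (threshold 0.05). The scripts were tested on simulated data. On the recovered reads, edgeR 4.0.16 and DESeq2 1.42.0 were run as alternatives, beside other pseudocounts, filters, scalings, spread models, a read-share term and left-out libraries. For 5104, 1961 and 2276 genes DESeq2 left the adjusted p empty (in the order naphthalene to control, osimertinib to naphthalene, osimertinib to control).

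Genes were named by rule: the 10 genes, the largest differences of the companion lists, the 6 most alike and close paralogues; of these the main ones are given, and 1 gene that the rule names is not reported here. Trf, Ptprc, Csf2ra, Atp6v0d2 in osimertinib against control, Adipoq, Plin1, Sftpc, Lyz2, Tyrobp, Kdr and the neutrophil genes were chosen after their values were seen. The members and lists were chosen with earlier results of these data known. To see whether replicate numbers pair the samples, deviations from group means were correlated. Same-numbered naphthalene and osimertinib libraries gave 0.122, 0.159 and 0.523. Only those of replicate 3 were each other's best match between the groups, so the values do not establish a pairing. Control gave −0.0928 to 0.203 with naphthalene, where only replicate 2 matched in that way. With osimertinib control gave −0.152 to 0.0747, where no replicate did. The direction within same-numbered pairs was added after seeing the data.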

Additional observations from a re-analysis of the deposited data

Results flagged for a closer look

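Within the 5 osimertinib libraries, 3 of the 10 genes had 1 library farther from the rest than Dixon's 95% limit allows, and it was osimertinib 3 each time. Adgre1 was at 38.8 CPM there, with the next library at 23.0. Pparg was at 16.5, with the next at 7.94. Ear2 was at 114, with the next at 53.1. Chance flags about 1 in 20 such groups, and genes measured in the same library are not independent. Of the neutrophil genes, S100a8 was also high in osimertinib 3 (131 CPM, against 7.13 to 17.2 in the other osimertinib libraries) and Ltf was low (5.70, against 15.1 to 29.5). Sftpc (17256 CPM) and Lyz2 (8620 CPM) were also highest there, and the part of all these in the flagged values was not tested.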

How the results depend on the processing

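With naphthalene and control compared, the log2 difference turned sign with equal totals without genes over 5% (Itgax −0.26, Marco −0.036, Siglecf −0.073, Mrc1 −0.13), array weights (Itgax −0.085), the read share as a term (Itgax −0.068, Mrc1 −0.25, Adgre1 0.017, Ear2 0.15), and edgeR (Ear2 0.19) or DESeq2 (Ear2 0.20). Leaving out 1 library gave −0.20 to 0.14 for Itgax, −0.0058 to 0.29 for Siglecf, −1.45 to 0.61 for Fabp4, −0.36 to 0.13 for Adgre1 and −0.63 to 0.24 for Ear2. In osimertinib against control, Pparg turned to −0.10 with array weights and −0.13 without osimertinib 2 and 3. Leaving out 1 library gave −1.18 to 0.66 for Fabp4 in osimertinib against naphthalene, −1.35 to 0.15 for Fabp4 in osimertinib against control and −0.0998 to 0.19 for Pparg there.

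In naphthalene against control 0 genes of all were called by limma, against 21 with only these groups, 5 with array weights, 2 with the read share as a term, 38 without osimertinib 2 and 3, 12 by DESeq2 and 0 to 12 with 1 library left out (12 without osimertinib 2). In osimertinib against naphthalene the count was 0, against 41 with equal totals (1 of the 10 genes, Itgax), 1 with quantile normalisation, 1 with only these groups, 4 with array weights, 2 with the read share as a term, 1 with osimertinib 2 alone, 47 without osimertinib 2 and 3, 33 by DESeq2 and 0 to 11 with 1 library left out (11 without osimertinib 2). In osimertinib against control the count was 1, against 0 with equal totals, 0 without the trend, 149 with array weights (3 of the 10: Itgax, Chil3 and Plet1), 2 with the read share as a term, 2 without osimertinib 2 and 3, 78 by DESeq2 (2 of the 10) and 0 to 2 with 1 library left out. The causes were not tested.

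With the replicate block 0 genes were called in each comparison, and 0 of the 10; it changed no other call.

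The counts of genes whose groups do not overlap were tried under alternatives chosen after seeing the data. Naphthalene against control had 1 (Plet1, higher), against 2 with median-ratio rescaling, 1 with equal totals (Pparg, lower, in place of Plet1) and 1 to 5 with 1 library left out. Of all genes 4.94% lay wholly higher in the main setting, 7.95% with median-ratio rescaling and 11.2% without naphthalene 3, which gave the 5. Wholly lower lay 11.2%, 7.55% and 26.4% in these settings, and 40.9% with equal totals. Osimertinib against naphthalene had 0, against 5 with equal totals and 0 to 5 with 1 library left out. Of all genes 3.82% lay wholly higher in the main setting, 10% with equal totals and 13.4% without naphthalene 3, which gave the 5. Osimertinib against control had 6, and 6 or 7 in all these settings (7 with the lower call of Pparg without osimertinib 2 and 3, or with Ear2 without osimertinib 4). Of all genes 2.91% lay wholly higher in the main setting, and from 1.49% (equal totals) to 6.69% (without osimertinib 2 and 3) in the others. Without osimertinib 2 and 3, 8.44% of all genes lay wholly lower, and the gap of Pparg there was below the value of 1 read. Few reads limit the naphthalene libraries most: 11 to 22 of Pparg and 11 to 19 of Marco.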

Other observations

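Nr4a1, a nuclear receptor needed by patrolling monocytes and also an immediate early gene, had the largest difference among the monocyte genes in every comparison. It was at 22.7 ± 4.13 CPM (SD, n = 5) in osimertinib, 42.8 ± 15.8 (SD, n = 3) in naphthalene and 69.6 ± 25.8 (SD, n = 3) in control. DESeq2 called it lower in osimertinib against control (adjusted p = 1.34e-05), and limma did not (log2 −1.53, SE 0.26, adjusted p = 0.313). The other monocyte genes went both ways there: Spn had a log2 difference of −0.56 (SE 0.20) and Gngt2 of 0.41 (SE 0.29).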
